A study of Homo sapiens with 12 samples.

Results

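Genes of the circadian clock and the clock-linked repressors BHLHE40 and BHLHE41 were followed in the human small cell lung cancer cell line NCI-H446 after treatment with caffeic acid phenethyl ester (CAPE). The 10 genes, BHLHE40, BHLHE41, PER1, PER2, PER3, CRY1, CRY2, NR1D1, NR1D2 and DBP, were taken by symbol, and all 10 were found among the 34886 genes of the mRNA table. The treated group received 40 µM CAPE, a phenolic ester of propolis dissolved in dimethyl sulfoxide (DMSO), for 8 h, and the control group received an equal volume of DMSO alone. Each group had 3 mRNA libraries, called CAPE 1 to 3 and DMSO 1 to 3 below, from the same line, which is the only model used. Nothing in the labels says that the replicates were grown separately. The p-values therefore cover only the spread among these 6 libraries, which may be technical. The labels also give no time of day and no step that would have set the cells' clocks to a common phase. Because RNA came from whole cultures, fewer expressing cells and less RNA per cell cannot be told apart.

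The circadian clock of mammalian cells is a loop of transcription. CLOCK, or its relative NPAS2, pairs with BMAL1 (ARNTL in these files) on E-box sequences and switches on the PER and CRY genes, whose proteins return to the nucleus and shut their own activators off. NR1D1 and NR1D2 encode the REV-ERB nuclear receptors, which repress ARNTL and oppose the ROR receptors, while DBP and the repressor NFIL3 compete for D-box sequences in output genes. BHLHE40 and BHLHE41 (also called DEC1 and DEC2) bind E-boxes as repressors and are known to be induced by many stimuli outside the clock, hypoxia and growth factors among them.

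The promoters of 5 members are shown as examples that carry the clock's own sequences. Of these genes 4 were called on counts in at least 1 of the edgeR fits below, while PER1 was called on TPM alone. PER3, called on counts without DMSO 3, and the uncalled CRY1, CRY2 and NR1D1 carry such sequences too but are not shown. Each promoter covers 250 bases before and 50 bases after a transcription start in RefSeq (GRCh38.p14), read 5′ to 3′ on the gene's strand. Capitals mark an E-box (CACGTG), the related E′-box (CACGTT) or a D-box (TTATGTAA or TTACGTAA), each searched on both strands. BHLHE40 lies at chr3:4979187-4979486 (plus strand), BHLHE41 at chr12:26124988-26125287 (minus), PER1 at chr17:8152355-8152654 (minus), PER2 at chr2:238288561-238288860 (minus) and the second of the NR1D2 windows at chr3:23945871-23946170 (plus).
BHLHE40: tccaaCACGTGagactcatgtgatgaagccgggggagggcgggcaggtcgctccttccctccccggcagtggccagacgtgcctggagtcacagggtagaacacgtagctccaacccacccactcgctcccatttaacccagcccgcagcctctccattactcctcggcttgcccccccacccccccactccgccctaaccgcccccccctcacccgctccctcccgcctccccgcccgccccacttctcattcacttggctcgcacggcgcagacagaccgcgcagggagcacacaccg
BHLHE41: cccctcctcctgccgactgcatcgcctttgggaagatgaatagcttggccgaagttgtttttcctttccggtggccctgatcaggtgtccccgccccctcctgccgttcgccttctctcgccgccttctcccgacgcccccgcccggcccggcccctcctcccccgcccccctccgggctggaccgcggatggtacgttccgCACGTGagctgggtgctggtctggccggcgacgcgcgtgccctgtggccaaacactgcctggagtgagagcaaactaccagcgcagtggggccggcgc
PER1: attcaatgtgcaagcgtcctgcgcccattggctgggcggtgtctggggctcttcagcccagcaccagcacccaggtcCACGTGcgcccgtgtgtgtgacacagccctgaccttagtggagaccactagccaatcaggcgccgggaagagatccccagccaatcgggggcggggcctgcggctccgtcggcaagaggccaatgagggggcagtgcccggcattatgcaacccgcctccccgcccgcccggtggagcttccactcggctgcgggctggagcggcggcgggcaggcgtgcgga
PER2: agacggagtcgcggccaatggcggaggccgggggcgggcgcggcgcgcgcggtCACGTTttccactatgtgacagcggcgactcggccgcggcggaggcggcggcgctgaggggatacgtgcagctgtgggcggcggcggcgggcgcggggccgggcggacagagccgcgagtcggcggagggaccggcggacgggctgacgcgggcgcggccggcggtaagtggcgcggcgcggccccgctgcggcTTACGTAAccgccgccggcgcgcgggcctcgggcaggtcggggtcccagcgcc
NR1D2: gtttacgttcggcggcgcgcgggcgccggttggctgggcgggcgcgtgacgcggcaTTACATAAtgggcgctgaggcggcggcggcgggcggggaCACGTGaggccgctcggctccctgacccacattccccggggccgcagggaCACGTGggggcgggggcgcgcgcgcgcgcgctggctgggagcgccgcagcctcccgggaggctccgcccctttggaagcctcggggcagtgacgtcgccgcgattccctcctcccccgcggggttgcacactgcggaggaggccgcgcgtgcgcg

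All 10 genes had a promoter entry, 13 windows in all. The E-box was present in 4 of the 13 windows (1 each of BHLHE40, BHLHE41, PER1 and NR1D2, the last with 2 copies), where 7.26% of all 35116 promoter windows held it. Counted from the start, its first base lay at position -245 in BHLHE40, -48 in BHLHE41 and -173 in PER1. The E′-box was found in 4 windows (PER2, CRY1, CRY2 and NR1D1, against 5.34% of all windows) and a D-box in 3 windows (PER2, PER3 and NR1D2, against 1.01%). No window of a member held the cyclic AMP response element TGACGTCA (1.85% of all windows), the AP-1 site TGANTCA (7.71%) or the ROR and REV-ERB element (0.379%). The short hypoxia response cores ACGTG and GCGTG were in 12 of the 13 windows, with at least 1 for each member. Of all windows 48.4% held such a core. The core ACGTG lies within every E-box and, on the other strand, within every E′-box, so this count is not separate from those above.

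The libraries held 17569997 to 20917508 estimated counts. Because one of them, DMSO 3, stood apart, each member is compared below with all 6 libraries and with the 5 that remain without it. Some other clock genes are given with those 5 only. Against the average of DMSO 1 and DMSO 2, 2858 of 13595 tested genes lay 2-fold or more below in DMSO 3. A further 2836 lay 2-fold or more above in it. Relative transcript length, the ratio of a gene's count to its TPM (a level scaled to transcript length and library) over the library's median ratio, moved with this deviation, which had a median of 0.95 on the log2 scale in the tenth of genes with the shortest transcripts and -1.03 in the tenth with the longest. Of the markers of the neuroendocrine lineage typical of small cell lung cancer, NEUROD1 and INSM1 were at 0 in all 3 DMSO libraries and at or below 0.106 CPM (counts scaled to library size) in CAPE, and SYP was at 0.474 to 1.10 CPM. The list held 11 lineage markers of small cell lung cancer, among them POU2F3, which is not a neuroendocrine one. Of the 11, 4 passed the filter on low counts: SYP, DLL3 (0.213 to 1.98 CPM) and 2 at higher levels. These were UCHL1 at 5.88 to 18.5 CPM, and ENO2 at 37.8 to 53.7 CPM in DMSO and 169.5 to 188 CPM in CAPE (log2 fold change 2.03, edgeR adjusted p = 0.0137 with 6 libraries). The part of these markers in the results below was not tested. The epithelial keratins KRT8 and KRT18 were abundant, at 759 to 3421 and 354 to 1923 CPM with the highest value in DMSO 3, while EPCAM was at 1.32 to 2.18 and CDH1 at 0.205 to 0.528 CPM. Of the 9 listed markers of other cell types 6 passed the filter. CD68 was at 23.6 to 49.6 CPM and COL1A1 at 17.8 to 27.1 CPM. PECAM1 was at 1.91 to 3.97, ACTA2 at 1.15 to 3.90, PDGFRB at 1.21 to 2.75 and the leukocyte marker PTPRC at 0.205 to 1.43 CPM. The T cell marker CD3E was at 0 in all 6 libraries, and VWF and COL1A2 were at or below 0.153 and 0.261 CPM.

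With CAPE the 2 repressors BHLHE40 and BHLHE41 rose, and no other member passed with all 6 libraries. The test was edgeR's quasi-likelihood test with Benjamini-Hochberg adjustment over all 13595 genes and a threshold of 0.05. Of the 10 members 2 were called higher and none lower, where 1.49% of all genes were called higher and 0.456% lower, 1.95% in all. One further member, PER2, had an unadjusted p under 0.05, a level that 2183 of the 13595 genes reached. The median log2 fold change of the 10 was -0.03, beside -0.01 for all genes tested. Without DMSO 3, 5 members passed, with PER2 added to the rises and PER3 and NR1D2 called lower. In that fit 20.4% of all 13919 genes were called higher and 20.8% lower, 41.2% in all, so the 3 rises and 2 falls among 10 members lie near the shares of all genes, and the median of the members was 0.03 beside 0.00346.

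In CPM all CAPE libraries lay above all 3 DMSO libraries for 4 members (BHLHE40, BHLHE41, PER2 and CRY1) and below for none, where 21.4% and 20.6% of all genes did so. Without DMSO 3 it was 4 above and 2 below (PER3 and NR1D2), where 31.1% and 31.2% of all genes did so. In TPM the 4 above were BHLHE40, BHLHE41, PER1 and PER2, with 25.8% of all genes above and 8.17% below. Without DMSO 3, PER3 and NR1D2 joined below, with 27.8% of all genes above and 25.2% below. With limma on log2(TPM + 1), 3 members were called higher and none lower without DMSO 3 (11.6% and 10.1% of all genes), and none either way with 6 libraries (0.737% and 0.175%).

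BHLHE41 (chromosome 12, 26120030 to 26125037, GRCh38.p14) had the larger rise. It measured 0.685, 0.992 and 0.753 CPM in DMSO 1 to 3 and 12.7, 13.1 and 14.01 CPM in CAPE 1 to 3. These rest on 13, 19 and 11 estimated counts in DMSO and 241, 246 and 274 in CAPE, so the control level is the less certain one. No DMSO library came near a CAPE library, and DMSO 3 lay between the other controls. The log2 fold change was 4.02 (SE 0.22, 95% interval 3.48 to 4.55, edgeR adjusted p = 0.00284), a 16.2-fold rise that ranked 9th among the rises of 13595 genes. Without DMSO 3 it was 3.97 (SE 0.18, edgeR adjusted p = 3.59e-10). With all 6 libraries the call was lost when CAPE 1 or CAPE 3 was left out (edgeR adjusted p = 0.0519 and 0.0536), at log2 fold changes of 4.05 and 3.98.

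The size of the rise in BHLHE41 was smaller per transcript length. TPM values were 0.589, 1.80 and 0.145 in DMSO and 11.1, 5.32 and 10.4 in CAPE. CAPE 2 thus had about the same count as CAPE 1 but a much lower TPM, and its relative transcript length for this gene was 2.13 against 0.98 and 1.16 in the other CAPE libraries. The groups did not overlap in TPM, the mean of CAPE was 10.6 times that of DMSO, and 7.47 times that of DMSO 1 and DMSO 2. SSPN, which overlaps BHLHE41 by 3047 bases on the other strand in RefSeq, was at 0 to 0.679 CPM in all 6 libraries.

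BHLHE40 (chromosome 3, 4979437 to 4985323) is the more abundant of the pair. It measured 118, 118 and 121 CPM in DMSO and 295, 282 and 310.3 CPM in CAPE. In CPM the DMSO libraries were close together, DMSO 3 included, and every CAPE library exceeded all of them. On the TPM scale DMSO 3 stood apart, with 26.2 against 57.9 for DMSO 1 and 63.9 for DMSO 2. The CAPE libraries still lay higher, from 151 to 178 TPM. Their mean TPM was 3.37 times that of all DMSO libraries, or 2.73 times that of DMSO 1 and DMSO 2. The edgeR estimate on the log2 scale was 1.32 (SE 0.13, 95% interval 0.99 to 1.64, edgeR adjusted p = 0.0158), a 2.49-fold rise, and 1.33 (SE 0.05, edgeR adjusted p = 4.16e-11) without DMSO 3. It ranked 428th among the rises, so its small p came with a moderate size. With all 6 libraries the call was lost when any one of DMSO 1, DMSO 2, CAPE 1, CAPE 2 or CAPE 3 was left out (edgeR adjusted p from 0.0971 to 0.173), while the log2 fold change stayed between 1.28 and 1.36. BHLHE41 made up 0.55 to 2.74% of the summed TPM of the pair in DMSO and 3.40 to 6.13% in CAPE, so BHLHE40 was the more abundant transcript in all 6 libraries.

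**Figure D1:**
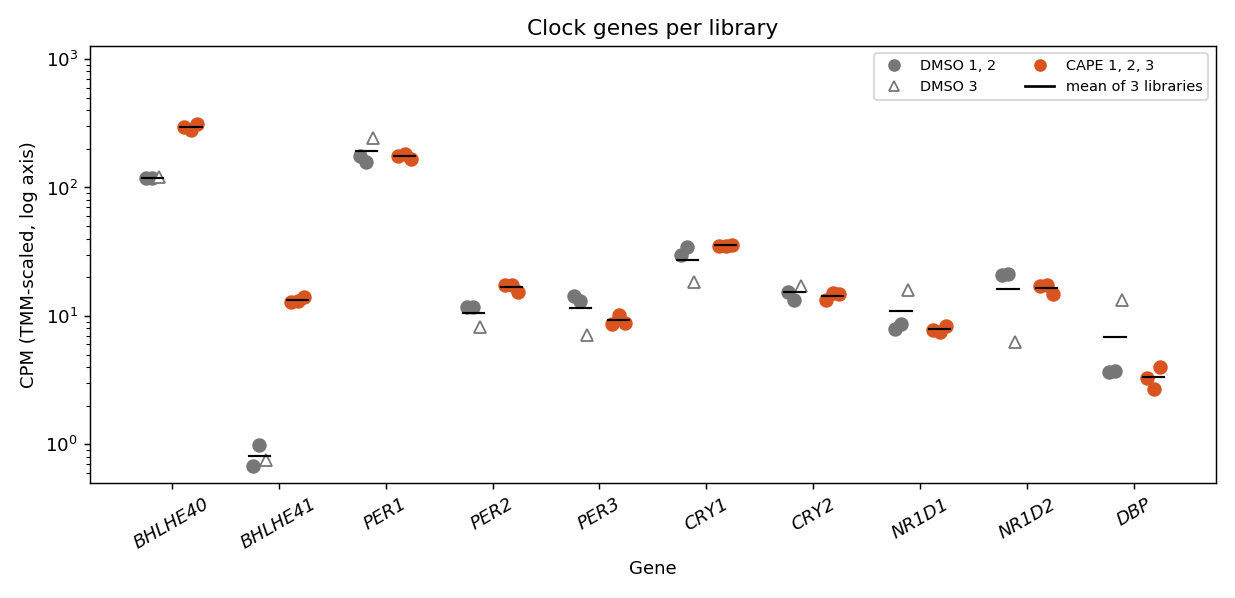
CPM of each clock gene in each library on a log axis, with grey circles for DMSO 1 and DMSO 2, open triangles for DMSO 3, orange circles for CAPE and black lines for the means of 3 libraries. BHLHE41 at 0.685 to 0.992 against 12.7 to 14.01 CPM and BHLHE40 at 118 to 121 against 282 to 310.3 CPM are the clearly separated pairs, while DMSO 3 sits apart from the other controls for NR1D2 and DBP.

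The 3 PER genes, the repressors at the core of the loop, did not move together. PER2 (chromosome 2, 238244044 to 238300065) measured 11.65, 11.64 and 8.21 CPM in DMSO and 17.5, 17.5 and 15.2 CPM in CAPE. All CAPE libraries were above all DMSO libraries, and DMSO 3 was the lowest. Its log2 fold change came to 0.67 (SE 0.20, edgeR adjusted p = 0.19) with 6 libraries and 0.52 (SE 0.11, 95% interval 0.29 to 0.75, edgeR adjusted p = 0.00117) with 5, a 1.43-fold rise. On log2(TPM + 1) with limma the 5-library value was 0.46 and did not pass (limma adjusted p = 0.1).

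PER3 (chromosome 1, 7784291 to 7845177) went the other way without DMSO 3. It measured 14.2, 13.1 and 7.05 CPM in DMSO and 8.67, 10.2 and 8.85 CPM in CAPE. The CAPE libraries lay below DMSO 1 and DMSO 2 and above DMSO 3, so the groups overlapped only through that library. For PER3 the log2 fold change was -0.32 (SE 0.29, edgeR adjusted p = 0.521) with 6 libraries and -0.57 (SE 0.11, 95% interval -0.81 to -0.33, edgeR adjusted p = 0.000928) with 5. With limma on log2(TPM + 1) over 5 libraries it was -0.38 and did not pass (limma adjusted p = 0.169). The 95% intervals of PER2 and PER3 lay on opposite sides of 0 in the 5-library fit.

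PER1 (chromosome 17, 8140472 to 8152404) was the most abundant of the 3 by far, with 93.4 to 95.8% of their summed TPM in every library. Its CPM values were 177, 158 and 242 in DMSO and 177, 182 and 165 in CAPE, and the groups overlapped. Neither fit called it (log2 fold change -0.14, SE 0.20, edgeR adjusted p = 0.678 with 6 libraries, and 0.06, SE 0.06, 95% interval -0.06 to 0.18, edgeR adjusted p = 0.426 with 5).

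In TPM, however, PER1 was higher with CAPE. TPM values were 141, 112 and 49.4 in DMSO and 160, 161 and 169 in CAPE, with no overlap. Limma on log2(TPM + 1) gave 0.38 (SE 0.10, limma adjusted p = 0.0365) over 5 libraries and 0.82 (SE 0.38, limma adjusted p = 0.458) over 6. Beside this difference between CPM and TPM, the relative transcript length of PER1 was 1.06, 1.19 and 1.80 in DMSO and 0.943, 0.976 and 0.845 in CAPE, also without overlap. All CAPE libraries were below all DMSO libraries in this length for PER1 alone among the members, where 4.71% of all genes were so with 6 libraries and 8.81% with 5. They were above for NR1D1 and NR1D2 with 6 libraries (23.3% of all genes), and for BHLHE41 as well with 5 (27.2%). The deposited values are summed over transcripts, so which PER1 transcripts took up the reads was not analysed here.

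**Figure D2:**
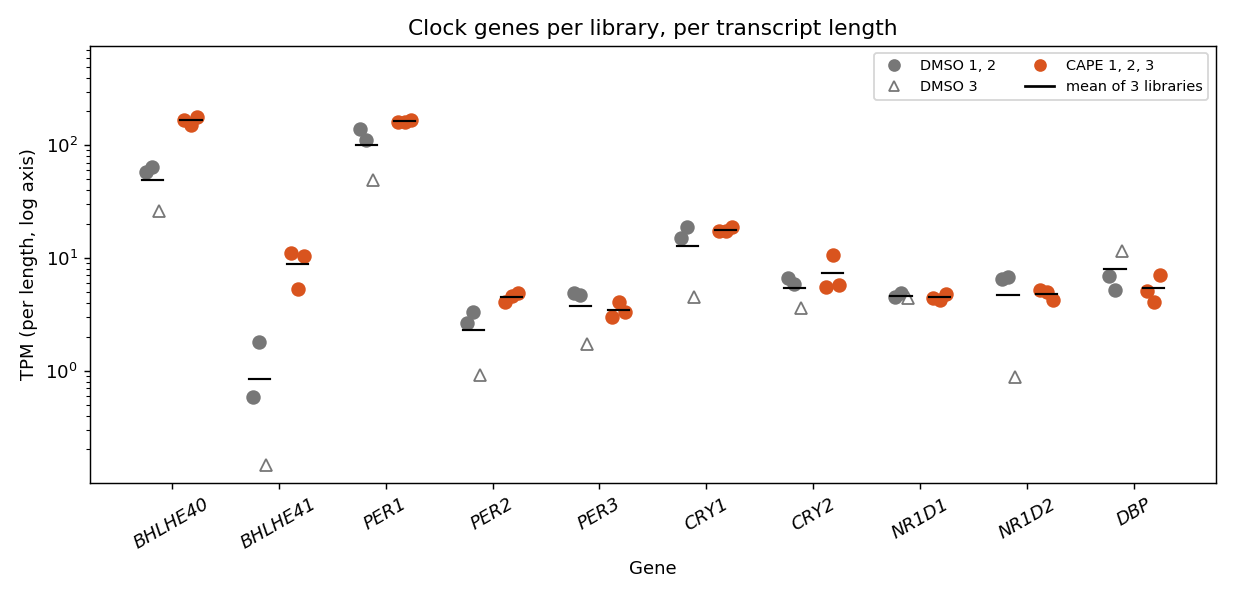
TPM, the level per transcript length, of each clock gene in each library on a log axis, drawn as in the plot of CPM. PER1 lies at 49.4 to 141 TPM in DMSO and 160 to 169 in CAPE, and BHLHE40 at 26.2 to 63.9 and 151 to 178, the top levels among the members in both groups.

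Cryptochromes, the partners of PER proteins in repression, showed no call in either fit. CRY1 (chromosome 12, 106991364 to 107093549) measured 29.9, 34.2 and 18.5 CPM in DMSO and 35.0, 35.3 and 35.8 CPM in CAPE. The CAPE libraries were all above the DMSO libraries, by little over DMSO 2. The log2 fold change was 0.36 (SE 0.24, edgeR adjusted p = 0.405) with 6 libraries and 0.14 (SE 0.07, 95% interval -0.02 to 0.30, edgeR adjusted p = 0.149) with 5. CRY2 (chromosome 11, 45847118 to 45883244) measured 15.2, 13.4 and 17.0 CPM in DMSO and 13.4, 15.1 and 14.7 CPM in CAPE, which overlap. Its log2 fold change was -0.08 (SE 0.16, edgeR adjusted p = 0.773) with 6 libraries and, with 5, 0.00562 (SE 0.11, 95% interval -0.22 to 0.23, edgeR adjusted p = 0.972). CRY2 in CAPE 2 had a TPM of 10.7 against 5.57 and 5.74 in CAPE 1 and CAPE 3, at a relative transcript length of 1.22 against 2.05 and 2.22.

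Of the REV-ERB receptors, NR1D2 was lower without DMSO 3 and NR1D1 was not called. NR1D2 (chromosome 3, 23945286 to 23980617) measured 21.0, 21.1 and 6.295 CPM in DMSO and 17.2, 17.4 and 14.7 CPM in CAPE. The CAPE libraries lay between DMSO 3 and the other controls. The log2 fold change was 0.03 (SE 0.45, edgeR adjusted p = 0.975) with 6 libraries and -0.36 (SE 0.10, 95% interval -0.57 to -0.15, edgeR adjusted p = 0.00815) with 5, so both its sign and its call turned with DMSO 3, and the limma fit on log2(TPM + 1) over 5 libraries gave -0.41 without passing (limma adjusted p = 0.0944). NR1D1 (chromosome 17, 40092793 to 40100589) measured 7.96, 8.62 and 16.01 CPM in DMSO and 7.77, 7.497 and 8.39 CPM in CAPE, with DMSO 3 above all others. Its log2 fold change was -0.46 (SE 0.30, edgeR adjusted p = 0.399) with 6 libraries and -0.08 (SE 0.12, 95% interval -0.34 to 0.19, edgeR adjusted p = 0.654) with 5.

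NR1D1 overlaps THRA, the gene of a thyroid hormone receptor on the opposite strand, by 1075 bases. THRA measured 54.5 to 68.7 CPM in DMSO and 39.0 to 40.7 CPM in CAPE, and was lower by the 5-library fit (log2 fold change -0.48, SE 0.06, edgeR adjusted p = 1.85e-05) but not by the 6-library fit (-0.59, edgeR adjusted p = 0.148). Whether the counting used strand is not given in the sources used here, so reads from the shared bases cannot be assigned with certainty.

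DBP (chromosome 19, 48630030 to 48637379), an activator at D-boxes and a classical output of the clock, was not called. It measured 3.64, 3.71 and 13.2 CPM in DMSO and 3.28, 2.71 and 4.04 CPM in CAPE. DMSO 1 and DMSO 2 lay within the range of CAPE, and DMSO 3 was far above all. In DBP the log2 fold change was -1.02 (SE 0.56, edgeR adjusted p = 0.355) with 6 libraries and -0.14 (SE 0.20, 95% interval -0.56 to 0.29, edgeR adjusted p = 0.612) with 5. SPHK2, which overlaps DBP by 376 bases on the other strand, also had its highest value in DMSO 3 (33.5 CPM against 16.5 and 17.8 in the other controls).

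**Figure D3:**
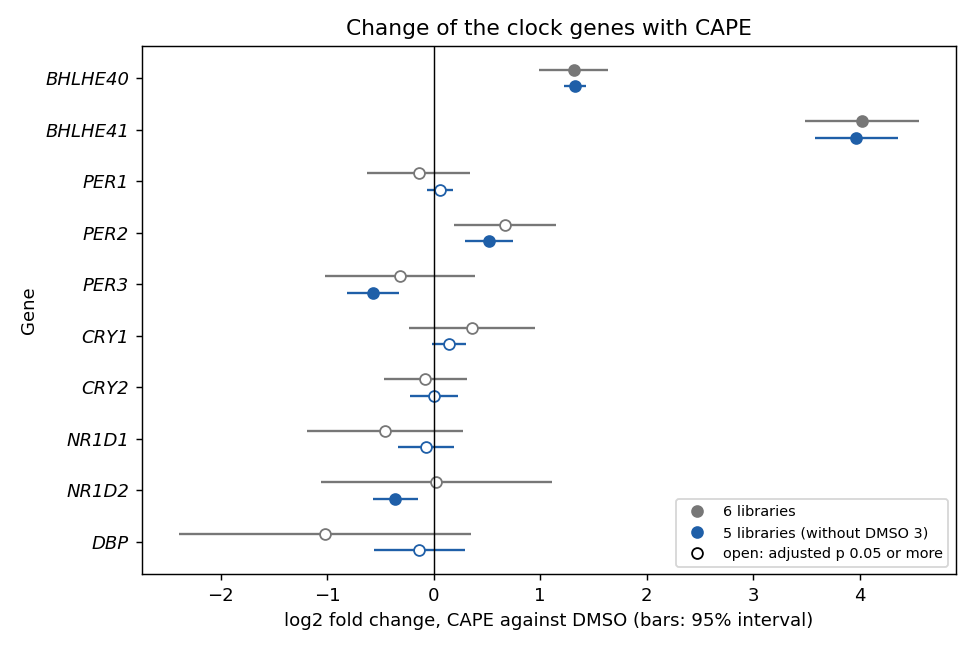
Log2 fold change of each clock gene, CAPE against DMSO, with 95% intervals from edgeR, in grey for 6 libraries and blue for the 5 without DMSO 3. Filled points have an adjusted p under 0.05, and BHLHE40 (1.32 and 1.33) and BHLHE41 (4.02 and 3.97) are filled in both fits.

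The members differed widely in how far DMSO 3 deviated from DMSO 1 and DMSO 2. On the log2 CPM scale DMSO 3 was higher by 1.82 for DBP, 0.94 for NR1D1, 0.54 for PER1 and 0.25 for CRY2, within 0.12 for BHLHE40 (0.04) and BHLHE41 (-0.12), and lower for PER2 (-0.50), CRY1 (-0.79), PER3 (-0.94) and NR1D2 (-1.72). DBP had the shortest relative transcript length of the members (0.522) and PER2 (3.29), NR1D2 (2.78) and PER3 (2.33) the longest. Over the 10 members Spearman's rho between this length and the deviation was -0.77, and over all 13595 genes -0.457, as a description of 1 library. With a length trend removed from each library, the 6-library fit called BHLHE40 (log2 fold change 1.19, edgeR adjusted p = 0.0138) and BHLHE41 (4.05, edgeR adjusted p = 0.00158) and gave -0.16 for NR1D2, -0.67 for DBP and 0.32 for PER2, none of which passed.

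**Figure D4:**
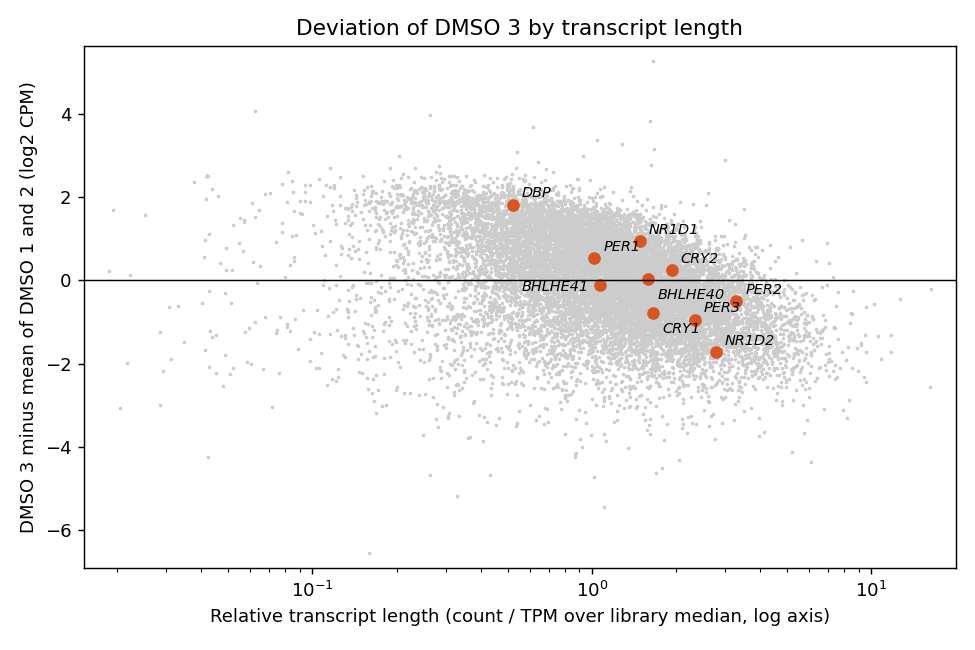
Deviation of DMSO 3 from the mean of DMSO 1 and DMSO 2 (log2 CPM) against relative transcript length on a log axis, for all tested genes in grey and the clock genes in orange. DBP lies at 1.82 on the short side and NR1D2 at -1.72 on the long side, with BHLHE40 (0.04) and BHLHE41 (-0.12) near 0.

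In levels per transcript length, BHLHE41 moved up most in the order of the members with CAPE. In DMSO the mean TPM ran from PER1 (101) through BHLHE40 (49.3) and CRY1 (12.8) to DBP, CRY2, NR1D2, NR1D1, PER3 and PER2 (7.95 down to 2.30), with BHLHE41 lowest (0.845). Over DMSO 1 and DMSO 2 alone the top 3 and BHLHE41 (1.195) kept their places, and NR1D2 (6.65) came before CRY2 (6.25), DBP (6.11), PER3 (4.75), NR1D1 (4.73) and PER2 (2.998). In CAPE BHLHE40 (166 ± 13.8, SD, n = 3) and PER1 (163 ± 5.08) headed the order and did not differ beyond their spread, followed by CRY1 (17.8 ± 0.938). BHLHE41 came next at 8.93 ± 3.14, a level that overlapped CRY2 (7.34 ± 2.91) and DBP (5.42 ± 1.54), and NR1D2, PER2, NR1D1 and PER3 followed at 4.78 down to 3.46. In DMSO each gene's range over the 3 libraries overlapped that of the next in order, except for BHLHE40 and CRY1.

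Among the activators of the loop, 1 of 4 tested genes rose without DMSO 3 and none passed with 6 libraries, where 20.4% and 1.49% of all genes were called higher (median log2 fold change 0.10 with 5 and 0.32 with 6). The riser was ARNTL, which encodes BMAL1, at 28.8, 28.8 and 25.4 CPM in DMSO and 38.3, 40.3 and 40.4 CPM in CAPE. No DMSO library reached the CAPE range. Its log2 fold change was 0.52 (SE 0.14, edgeR adjusted p = 0.153) with 6 libraries and 0.46 (SE 0.07, edgeR adjusted p = 8.36e-05) with 5. In TPM the ratio of means for ARNTL was larger, at 2.10 (1.685 against DMSO 1 and DMSO 2) beside 1.43 in CPM. Its relative transcript length was 1.12, 1.08 and 1.04 in DMSO and 0.903, 0.929 and 0.918 in CAPE, without overlap. Of all genes 4.71% were below in this way with 6 libraries. CLOCK, the partner of BMAL1, was at 47.1, 48.8 and 17.0 CPM in DMSO 1 to 3 and at 47.1 to 47.9 CPM in CAPE. The log2 fold change of CLOCK was -0.02 (edgeR adjusted p = 0.862) with 5 libraries and 0.34 (edgeR adjusted p = 0.605) with 6. ARNTL2, a relative of ARNTL, was at 0.09 (edgeR adjusted p = 0.265) with 5 and 0.31 (edgeR adjusted p = 0.458) with 6.

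The ROR and D-box group had 5 of 6 genes tested, of which 1 rose with 6 libraries and 2 without DMSO 3, and none fell. Of all genes, 1.49% were called higher and 0.456% lower with 6 libraries, and 20.4% and 20.8% with 5. RORA, the nuclear receptor that activates ARNTL at the elements REV-ERB proteins occupy, had the largest log2 fold change of the group. RORA rested on 24, 27 and 14 estimated counts in DMSO and 266, 223 and 238 in CAPE, so its control level is the less certain one. It measured 1.27, 1.41 and 0.958 CPM in DMSO and 14.1, 11.9 and 12.2 CPM in CAPE. This was a 10.4-fold rise (log2 fold change 3.37, SE 0.22, edgeR adjusted p = 0.00522), and the log2 value was 3.24 (SE 0.17, edgeR adjusted p = 1.54e-09) without DMSO 3. In TPM the difference for RORA was smaller, from 0.560, 1.999 and 0.723 in DMSO to 4.36, 3.41 and 2.53 in CAPE, a ratio of means of 3.14 (2.68 against DMSO 1 and DMSO 2). Its relative transcript length was 1.90, 0.595 and 0.487 in DMSO and 2.75, 3.01 and 4.15 in CAPE, without overlap. Of all genes 23.3% were above in this way with 6 libraries. NFIL3, the D-box repressor that opposes DBP, went from 19.6 ± 3.14 CPM to 37.1 ± 2.48 CPM (SD, n = 3), with no overlap. The difference on the log2 scale was 0.92 (SE 0.17, edgeR adjusted p = 0.0667) with 6 libraries and 1.05 (SE 0.08, edgeR adjusted p = 1.56e-07) with 5. The D-box activators TEF and HLF were at -0.04 and -0.18 with 5 libraries (edgeR adjusted p = 0.862 and 0.719).

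**Figure D5:**
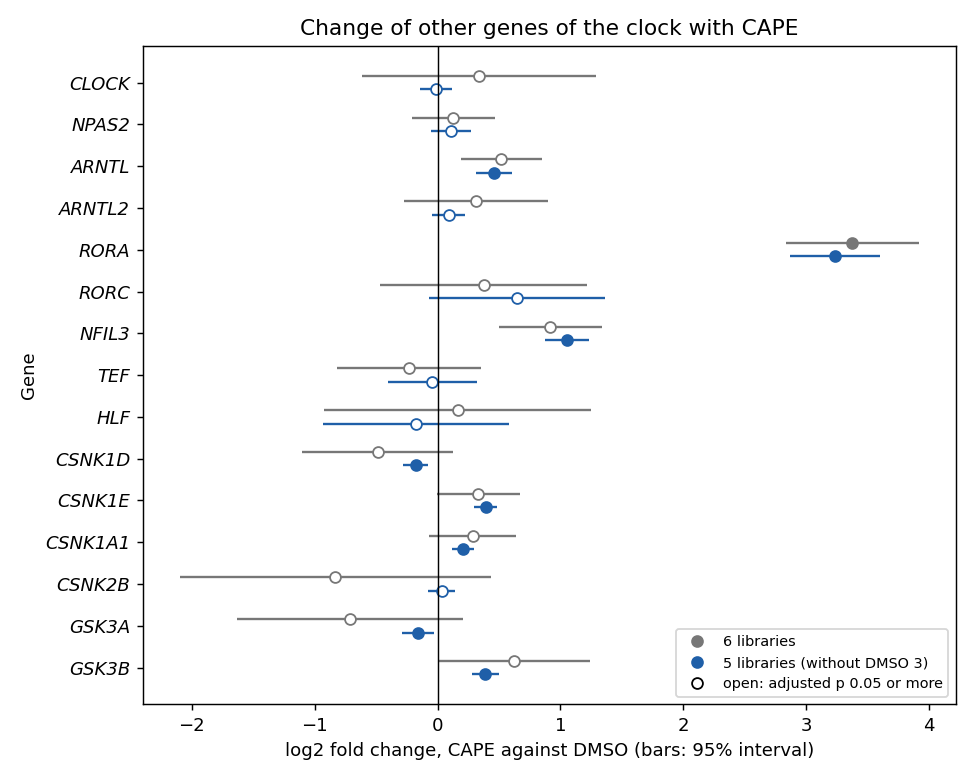
Log2 fold change with 95% intervals of other genes of the clock (activators, ROR and D-box factors, and kinases of the CSNK and GSK families), drawn as in the plot of the clock genes. RORA (3.37 and 3.24) is filled in both fits. NFIL3, ARNTL and the kinases CSNK1A1, CSNK1D, CSNK1E, GSK3A and GSK3B are filled without DMSO 3 only.

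Kinases, ubiquitin ligases and accessory proteins, which set the stability of PER and CRY proteins, had no call among 14 tested with 6 libraries. Without DMSO 3, 5 of the 14 were higher (CSNK1E, CSNK1A1, GSK3B and CIART among them) and 3 lower (CSNK1D, GSK3A and USP2), beside 20.4% and 20.8% of all genes, with a median of -0.01. The PER kinases CSNK1E and CSNK1D were called in opposite directions, at 0.39 (SE 0.05, edgeR adjusted p = 7.44e-06) and -0.18 (SE 0.05, edgeR adjusted p = 0.00766). GSK3B, another clock kinase, was at 0.39 (SE 0.05, edgeR adjusted p = 2.88e-05), and the deubiquitinase USP2 at -0.82 (SE 0.30, edgeR adjusted p = 0.0408) from 1.62 and 1.90 CPM in DMSO 2 and DMSO 1 to 0.869 to 1.16 CPM in CAPE. Chromatin partners of the clock likewise had no call among 10 with 6 libraries, where 1.95% of all genes were called. Without DMSO 3, 1 was higher and 3 lower, where 20.4% and 20.8% of all genes were, so the share of called genes lies near that of all genes. HDAC3, the deacetylase that REV-ERB proteins recruit, was the higher one (log2 fold change 0.25, edgeR adjusted p = 0.00211, against -0.34 and adjusted p = 0.602 with 6 libraries). SFPQ, WDR5 and NONO, which have been found with PER proteins, were lower (-0.33, -0.31 and -0.15), and the methyltransferase KMT2A was at 0.17 (edgeR adjusted p = 0.0544). The median of the 10 was -0.07 with 5 libraries and 0.15 with 6.

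The genes whose profiles lay nearest to the called members were found by Euclidean distance in mean-centred log2 CPM over the 6 libraries, among 9220 or 9221 named protein-coding genes with an average log2 CPM of at least 3. For BHLHE41 they were EPHA3, NIM1K and CDK18 (distances 0.435, 0.845 and 0.996), a receptor kinase and 2 other kinases. For BHLHE40 they were ADPRHL1, TPBG and UPRT (0.159, 0.166 and 0.166), for PER2 NAV1, DESI2 and SLC41A1 (0.135 to 0.163), for PER3 DCP2 and LPIN1 (0.0787 and 0.117), and for NR1D2 MBNL1, CLK4 and LPP (0.135 to 0.169). No other member was among the 3 genes nearest to any of these 5, but BHLHE41 and DBP were not candidates, since their average log2 CPM was under 3.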

How the data were processed

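Messenger RNA was measured in 3 DMSO and 3 CAPE libraries, and the miRNA libraries of the series were not used here. The deposited estimated counts per gene symbol rest on bcl2fastq, kallisto 0.46.1 and the build GRCh38, which the submitters' processing notes name, and are whole numbers, with 32 to 65 genes per library at a count of 0 beside a TPM above 0. The authors also deposited TPM per gene. How transcripts were summed to genes, and whether strand was used, is not given in the sources used here.

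Counts were filtered with filterByExpr, scaled with TMM factors (0.699 in DMSO 3, 1.07 to 1.09 in the others) and compared with edgeR 4.0.16 (R 4.3.3), with group as the only term and Benjamini-Hochberg adjustment over all genes. The SE is the log2 fold change divided by the square root of F. CPM use the 6-library scaling, and log2 CPM a prior count of 2. The length trend was a loess (span 0.5) of each library's log2 CPM, less the gene's mean over the libraries, against log2 relative transcript length. Limma 3.58.1 was run on log2(TPM + 1) and log2(TPM + 0.1) for genes with a mean TPM of at least 1, a scale that understates changes of low genes, and DESeq2 1.42.0 as an alternative. The fits were also run on simulated data in which all libraries shared a common mean per gene, apart from the genes set to change. Those data did not carry the length-related deviation of DMSO 3, so they cannot show how the fits deal with it.

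The members, gene lists, motifs and naming rule were chosen with earlier results of these data known. The rule took all members, other listed clock genes that passed with 6 libraries, the 2 smallest p per list and direction with 5, and the 3 nearest profiles per called member. Genes named beyond it complete a count of 5 or fewer, or overlap a member, and were chosen after their values were seen. Some genes that the rule or a count takes in are not reported here. Promoter sequences and coordinates are from RefSeq GRCh38.p14, in which all 10 members were matched by symbol.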

Additional observations from a re-analysis of the deposited data

How the results depend on the processing

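The calls for BHLHE40 and BHLHE41 kept their direction in every alternative run, and in the 5-library fit the same 5 members were called with each other library left out, with the replicate block, DESeq2 size factors, upper-quartile factors, the DESeq2 Wald test, no filter on low counts or the length trend removed. With limma on log2(TPM + 1) or log2(TPM + 0.1) over 5 libraries 3 members passed (BHLHE40, BHLHE41 and PER1), of 2893 and 2908 genes called. With 6 libraries the number of called members ran from 0 to 5, and that of all genes from 0 to 5731, when 1 library was left out, against 2 and 265. The 0 of all genes were without CAPE 1 or CAPE 3 (1178 and 1099 genes at an unadjusted p under 0.05), and without DMSO 3 the counts were 5 and 5731. All genes called were 870 with the DESeq2 Wald test, 412 with the length trend removed, and 120 and 93 with limma on log2(TPM + 1) and log2(TPM + 0.1), where no member passed and the median log2 fold change of all genes was 0.331 and 0.39. Deviations from the group mean had r = -0.194, 0.14 and -0.00853 between libraries with the same replicate number. Because DMSO 3 dominates the deviations of the controls, these values cannot show whether the numbers mark pairs. The main fits did not take the numbers as pairs. With the replicate block 0 members and 0 genes passed in edgeR (1384 at an unadjusted p under 0.05), and with the replicate block and the length trend removed together 1 member (BHLHE41) and 17 genes.

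Signs turned for 4 uncalled members in the 6-library fit. With 1 library left out NR1D2 ran from -0.359 (without DMSO 3) to 0.26, with -0.0104 and -0.0109 without CAPE 1 and CAPE 2. It was at -0.00496 with DESeq2 size factors, -0.0156 with the DESeq2 Wald test, -0.156 with the length trend removed and -0.0959 with that and the replicate block. CRY2 ran from -0.17 to 0.00562 (without DMSO 3) with 1 library left out, and was at 0.0258 with upper-quartile factors, and 0.366 and 0.42 with limma at pseudocounts 1 and 0.1. PER1 ran from -0.272 to 0.0579 (without DMSO 3) and was at 0.819 and 0.826 with limma, and PER3 at 0.0088 with limma at 0.1. In the 5-library fit PER1 ran from -0.0245 (without DMSO 2) to 0.139 with 1 more library left out. CRY2 ran there from -0.0846 to 0.0957 (-0.0846, -0.0245 and -0.00882 without DMSO 2, CAPE 2 and CAPE 3) and was at -0.00978 with the replicate block, -0.00168 with the DESeq2 Wald test, -0.00117 with no filter and -0.0132 with the length trend removed. None of these passed except NR1D2 without DMSO 3, and apart from the smaller number of libraries the cause was not tested. Depth limits BHLHE41 in DMSO (11 to 19 estimated counts) and DBP (51 to 193) most.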
